A study of Rattus norvegicus with 16 samples.

Results

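Glucocorticoids reach fat through a small set of genes, and 9 of them were followed here in epididymal white adipose tissue of young rats. They were Nr3c1 and Nr3c2, which encode the glucocorticoid and the mineralocorticoid receptor, Hsd11b1, which encodes the enzyme that regenerates active glucocorticoid inside the cell, and the responsive genes Fkbp5, Tsc22d3, Sgk1, Zbtb16, Mt1 and Mt2A. The members were chosen by name, and the array's probes were taken where their accession led to the rat gene symbol. All 9 were found, of 15168 genes named on the array. They had 12 probes, of which 11 passed the filter on dim probes, which asked for a signal above background in 4 or more animals of either group, and the probe of highest mean signal stands for its gene. For each of the 9 genes, that probe was clearly detected in all 16 animals.

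Each array held the RNA of 1 male rat of 30 days. The HFT group (n = 8) was born to dams that ate a high-fat diet through pregnancy and lactation and were given grape seed procyanidin extract (GSPE, 25 mg per kg body weight daily) in low-fat condensed milk. The HF group (n = 8) was born to dams on the same high-fat diet that were given the milk alone. Both groups went on eating the maternal diet after weaning, had free access to food, and were anaesthetised with pentobarbital before the tissue was taken and frozen. Both groups therefore share the high-fat diet, the anaesthetic and the killing; standard-diet animals were not analysed here. The labels do not say which pups had the same dam, so p-values treat littermates, if there were any, as separate samples.

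In the cell, a steroid-bound Nr3c1 protein leaves its chaperones, enters the nucleus and switches on genes such as Fkbp5, Tsc22d3, Sgk1 and Zbtb16. The Fkbp5 protein feeds back by lowering the receptor's affinity for the hormone, and the Tsc22d3 protein (GILZ) carries part of the anti-inflammatory action. In fat, active glucocorticoid comes both from blood and from Hsd11b1 on the endoplasmic reticulum, so responsive genes are often read as a trace of stress hormone in the hours before death.

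All levels below are log2 processed signals minus the array's 75th percentile, so that 0 is the brightness of that percentile. The percentile itself ran from 753 (HF 10) to 1366 (HFT 28) signal units, and no spot was saturated. A level serves to compare animals for 1 probe, and the probes of different genes are not set against each other. The 16 arrays filled 4 slides, each with HFT animals at positions 3 and 4 and HF animals at positions 1 and 2. Slide can be taken out of a comparison, whereas group and position cannot be told apart. As to the labelled tissue, all 11 adipocyte markers measured were detected in every animal. On 4 arrays, however, Ces5a, an esterase of the epididymal epithelium, lay above 0, at 2.08 (HFT 28), 0.61 (HFT 23), 3.68 (HF 9) and 1.89 (HF 8), against -8.17 to -0.41 on the other 12. A further 3 arrays (HFT 22, HFT 24 and HF 35) carried urothelial genes, with Upk3a, a bladder plaque protein, at 2.95 to 4.69. Differences between the groups are given with these arrays, and for the 9 genes, Cxcl1 and Junb also without them.

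Between the groups, none of the 9 genes passed the test. Across all 21809 probes fitted with limma, 0 (0.0%) passed a Benjamini-Hochberg adjusted p of 0.05, and 515 (2.36%) had an unadjusted p below 0.05, of which 247 (1.13%) were higher and 268 (1.23%) lower in HFT. With normexp background correction 0 passed too, but the unadjusted split was 122 higher and 833 lower. Of the 9 genes, 3 had differences above 0 and 6 below, with a median of -0.09 log2 units, beside -0.01 over the 11592 genes kept. Sgk1 was the single member with an unadjusted p below 0.05. In simulated data of this size the same fit recovered 58.1% of probes changed 1.5-fold and 82.4% of those changed 2-fold. The simulation changed many probes at once, which eases the adjusted threshold, and drew them from all probes kept. Its rates therefore do not tell how often a change in 1 of these 9 genes would be called.

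The 2 receptors varied least. Nr3c1 in HFT animals ran between -1.94 and -1.51 with a median of -1.79, against -2.19 to -1.50 with a median of -1.75 in HF animals. The 2 ranges overlapped almost wholly, with HF 9 the lowest of all and HF 12 the highest. The difference, HFT minus HF, was 0.03 ± 0.10 (SE; 95% interval -0.18 to 0.24). The gene's second probe gave -0.03 ± 0.10, and over the animals the 2 probes correlated at r = 0.73. Nr3c2, whose product binds the same hormone with higher affinity, had a range in HFT of -3.39 to -2.66 (median -3.09), against -3.25 to -2.70 (median -2.98) in HF. Here too the groups overlapped, and their difference was -0.09 ± 0.12 (interval -0.34 to 0.17). A second, dim Nr3c2 probe rose above background on 3 arrays and was not used.

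Hsd11b1 lay between -0.66 and 0.41 in HFT animals (median -0.25), against -0.75 to 0.06 in HF animals (median -0.39). HFT 28 was highest and HF 12 lowest, with the groups intermixed between them. The difference of 0.17 ± 0.15 (interval -0.16 to 0.49) differed in sign between slides, where it was -0.20 and -0.05 on slides 1 and 4 and 0.35 and 0.57 on slides 2 and 3. Around this enzyme, H6pd, which supplies its cofactor in the endoplasmic reticulum, differed by 0.05 ± 0.15. Hsd11b2, the enzyme that inactivates glucocorticoid, averaged 0.17 ± 0.34 in HFT and -0.15 ± 0.28 in HF (SD, n = 8 each), a difference of 0.32 ± 0.15 (SE) with an unadjusted p of 0.0480 by limma that did not survive adjustment.

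Fkbp5 split the animals instead of the groups. In HFT animals it ran between -0.70 and 0.96 with a median of -0.30, against -0.83 to 1.07 with a median of -0.28 in HF animals. Its values fell into 2 sets: HFT 28 (0.96), HFT 23 (0.57), HF 8 (1.07) and HF 9 (0.49) were high, and the other 12 animals lay between -0.83 and -0.08. Those 4 are exactly the arrays with Ces5a above 0, a limit set after the data were seen. The next array in Ces5a, HFT 24 at -0.41, had Fkbp5 at -0.17. The groups, with 2 of the 4 high animals each, had the same mean, and the difference was -0.00 ± 0.28 (interval -0.59 to 0.59). Without the 4 arrays it was 0.01.

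Tsc22d3 also formed 2 sets, but of other animals. The HFT range was 1.98 to 2.78 (median 2.24), against 1.97 to 2.82 (median 2.19) in HF. HFT 26, HFT 27, HFT 36, HF 10 and HF 12 lay at 2.59 or above, and the other 11 animals at 2.28 or below. None of the 5 high animals was among the 7 arrays with epididymal or urothelial genes. Both groups were present in both sets, and the difference was 0.06 ± 0.15 (interval -0.27 to 0.38).

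Sgk1, a kinase of salt and glucose transport that both receptors switch on, had the smallest unadjusted p of the 9. Its HFT animals ran between -1.22 and -0.42 with a median of -0.81, against -0.73 to 0.05 with a median of -0.51 in HF animals. The groups overlapped, yet all 8 HFT animals were below the HF mean of -0.41 ± 0.29 (SD), and their own mean was -0.81 ± 0.27. The difference of -0.40 ± 0.14 (interval -0.69 to -0.10) is a 1.32-fold lower signal, with an unadjusted p of 0.0110 and a limma adjusted p of 0.999994. It was below 0 on each slide, at -0.37, -0.43, -0.70 and -0.09 on slides 1 to 4. Under the alternatives tried its adjusted p never passed the threshold.

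Zbtb16, a zinc-finger repressor (PLZF) that glucocorticoids induce strongly in human cells, lay between -4.90 and -3.23 in HFT animals (median -3.92), against -4.09 to -2.76 in HF animals (median -3.67). HF 12 was the highest and HFT 24, one of the urothelial arrays, the lowest. The difference was -0.33 ± 0.22 (interval -0.79 to 0.13), and 7 of 8 HFT animals were below the HF mean.

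The metallothioneins Mt1 and Mt2A encode small proteins that bind zinc and copper, and they respond to metals, inflammation and glucocorticoids. Mt1 had the widest range of the 9 genes, 7.18-fold between the lowest and the highest animal. In HFT it ran between 0.01 and 2.15 with a median of 0.94, against 0.49 to 2.86 with a median of 1.60 in HF. The 2 highest animals, HF 8 and HF 9, and the third, HFT 28, are among the arrays with Ces5a above 0, and HFT 26 was lowest. The difference was -0.58 ± 0.36 (interval -1.34 to 0.18). Mt2A lay between 0.87 and 2.35 in HFT animals (median 1.18), against 0.73 to 3.09 in HF animals (median 1.76). HF 8 was again highest, the ranges overlapped, and the difference was -0.41 ± 0.32 (interval -1.09 to 0.28). A second Mt2A probe gave -0.37 ± 0.28 and followed the first over the animals at r = 0.98.

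Leaving out the 4 arrays with Ces5a above 0, or these and the 3 urothelial arrays, changed the sizes but brought none of the 9 genes past the threshold. In that order the differences were 0.01 and -0.06 for Nr3c1, -0.05 and -0.19 for Nr3c2, 0.16 and 0.13 for Hsd11b1, 0.01 and -0.10 for Fkbp5, and 0.05 and 0.15 for Tsc22d3. Sgk1 had -0.35 and -0.53, Zbtb16 -0.38 and -0.30, Mt1 -0.49 and -0.55, and Mt2A -0.55 and -0.46. Single animals weighed on some of these values. Without HF 8 the Mt2A difference was -0.22, without HFT 24 or without HF 12 that of Zbtb16 was -0.20, and without HFT 28 those of Hsd11b1 and Nr3c2 were 0.08 and -0.04.

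**Figure D1:**
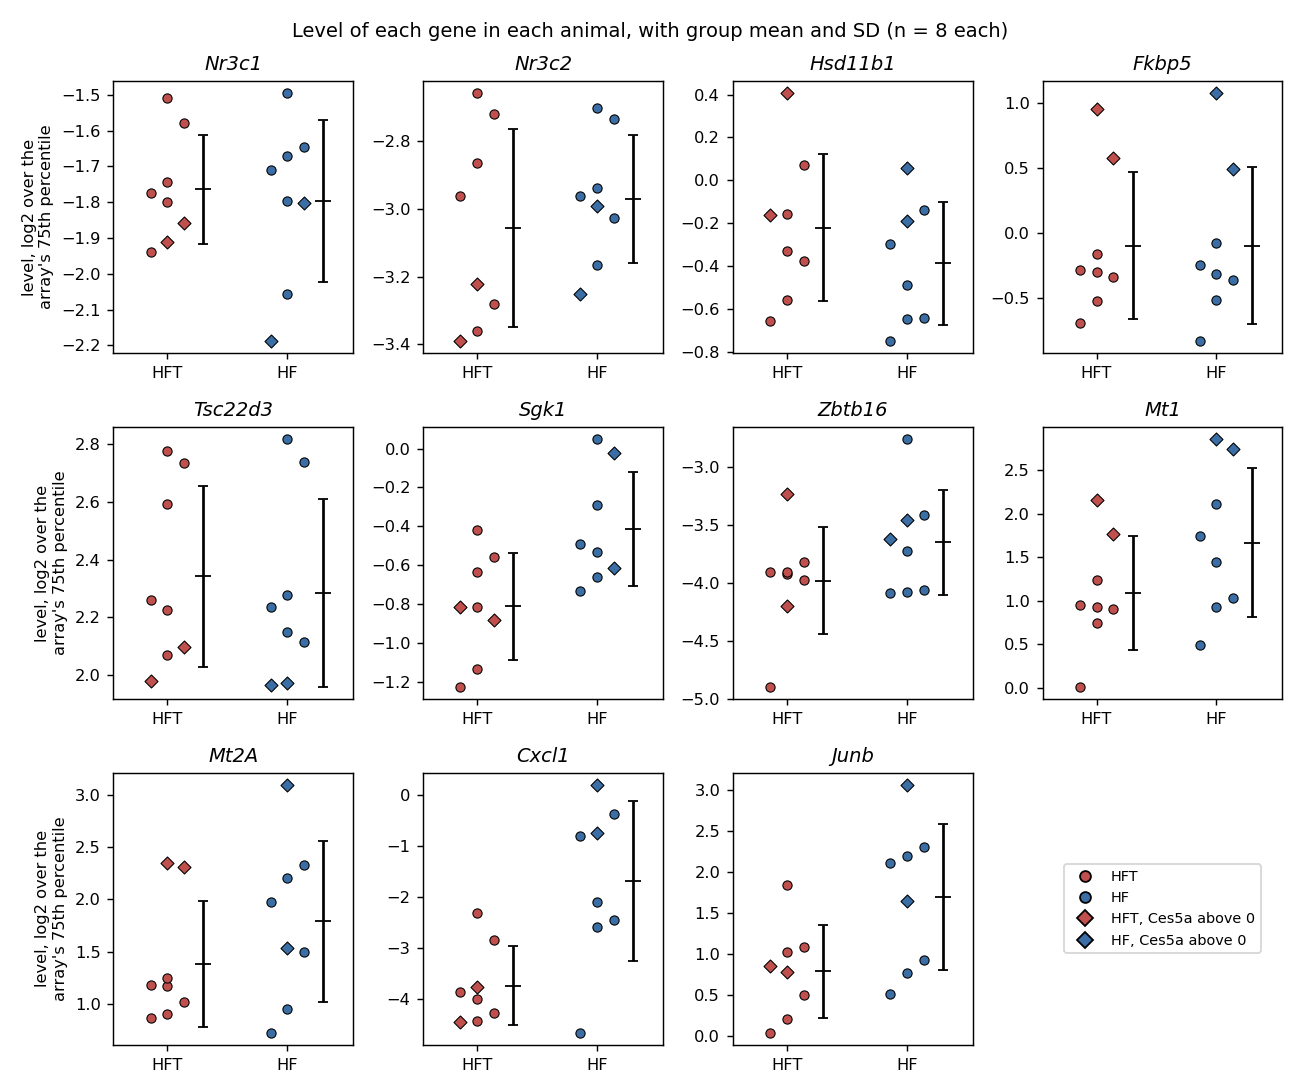
Level (log2 signal over the array's 75th percentile, vertical axis of each panel) of the 9 genes and of Cxcl1 and Junb in 8 HFT and 8 HF animals; diamonds are the 4 arrays with Ces5a above 0, and bars are group mean and SD. The diamonds form a set of their own for Fkbp5, and the 5 animals at 2.59 or above form one for Tsc22d3.

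**Figure D2:**
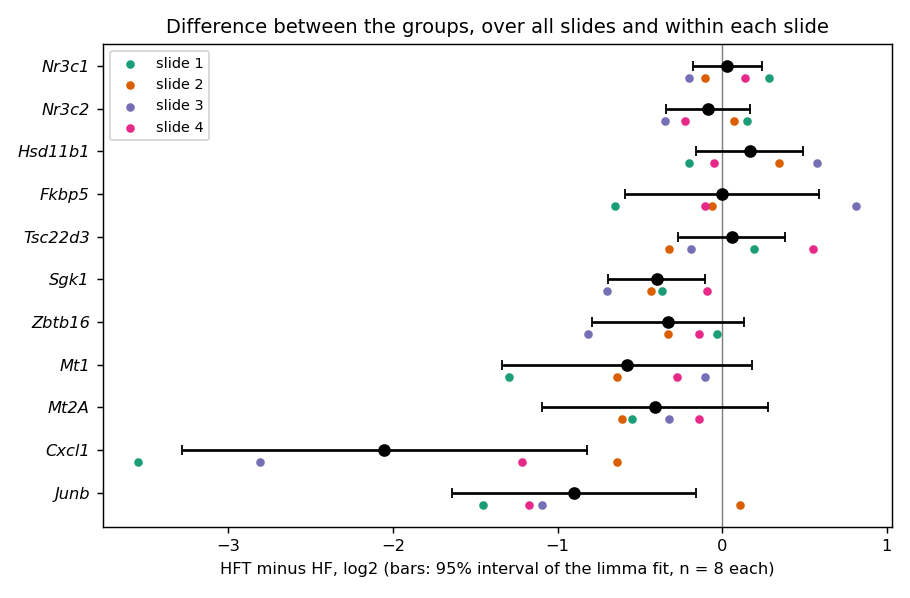
Difference HFT minus HF on the log2 scale for each gene (black, with the 95% interval of the limma fit, n = 8 each) and within each of the 4 slides (colours). The intervals of Sgk1, Cxcl1 and Junb do not reach 0, but none of the 3 passed after adjustment over all probes.

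No gene of the wider pathway passed between the groups. Of 31 other genes known to be induced by glucocorticoids, 29 were kept, of which 10 had differences above 0 and 19 below, with a median of -0.06, beside 5328 above and 6264 below over all genes. One of the 29, the adipogenic transcription factor Cebpd, had an unadjusted p below 0.05: it averaged 1.37 ± 0.26 in HFT and 1.79 ± 0.44 in HF (SD), a difference of -0.43 ± 0.17 (SE). The NF-kappaB inhibitor Nfkbia differed by -0.28 ± 0.16, the clock gene Per1 by -0.20 ± 0.12 and Anxa1, which encodes annexin A1, by 0.19 ± 0.15. Klf9, a transcription factor, differed by -0.10 ± 0.11, and the phosphatase gene Dusp1 by -0.21 ± 0.27. Pdk4, which restrains glucose oxidation, differed by -0.47 ± 0.41, and the mTOR inhibitor Ddit4 by -0.36 ± 0.30.

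Of 21 chaperones, coregulators and steroid enzymes, 15 were kept, 5 with differences above 0 and 10 below (median -0.05). Apart from Hsd11b2, the smallest unadjusted p belonged to Fkbp4, the receptor cochaperone that opposes Fkbp5, at -0.12 ± 0.08, the coactivator Crebbp at -0.12 ± 0.10 and the chaperone Hspa8 at -0.13 ± 0.12. Of 10 further genes of metal handling, 9 were kept and 8 had differences above 0 (median 0.10), while Mt1 and Mt2A had theirs below 0. Among them the copper pump Atp7a differed by 0.19 ± 0.11, the haem oxygenase Hmox1 by 0.22 ± 0.17, the metallothionein Mt3 by 0.26 ± 0.33 and the zinc exporter Slc30a1 by 0.10 ± 0.12. None of the 9 had an unadjusted p below 0.05. The 14 clock genes kept of 17 had none either. Cry1 differed by -0.18 ± 0.15, Nfil3 by -0.17 ± 0.15, Npas2 by -0.22 ± 0.20 and Dbp, whose level marks the time of day, by 0.05 ± 0.23.

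Cxcl1, a chemokine that draws neutrophils, and Junb, an immediate-early transcription factor, stood further apart between the groups. Cxcl1 ran in HFT animals between -4.45 and -2.32 with a median of -3.94, against -4.67 to 0.19 with a median of -1.45 in HF animals. All 8 HFT animals were below the HF mean, although HF 10 was the lowest animal of all. The difference was -2.05 ± 0.58 (interval -3.28 to -0.82), with an unadjusted p of 0.00272. Junb ran between 0.04 and 1.84 in HFT (median 0.82), against 0.52 to 3.06 in HF (median 1.88), a difference of -0.90 ± 0.35 (interval -1.64 to -0.16) with an unadjusted p of 0.0201. By slide, from 1 to 4, Cxcl1 differed by -3.55, -0.64, -2.81 and -1.22, and Junb by -1.45, 0.11, -1.09 and -1.17, so that Junb was not lower in HFT on slide 2. Without the 4 arrays with Ces5a above 0 the differences were -1.46 for Cxcl1 and -0.69 for Junb, and without the 7 arrays -1.29 and -0.89. For both, the limma adjusted p was 0.999994.

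Most immediate-early and inflammatory genes also had differences below 0. Over all 11592 genes kept, 6264 had differences below 0. At an unadjusted limma p below 0.05, 133 of the 11592 were lower and 134 higher in HFT. Of 29 immediate-early genes 27 were kept, 24 with differences below 0, and 7 had an unadjusted p below 0.05, all lower in HFT. Besides Junb these included the cytokine-signalling inhibitor Socs3 at -0.54 ± 0.16, Gadd45b at -0.40 ± 0.16 and Zfp36, which destabilises cytokine mRNAs, at -0.63 ± 0.27. Of 16 inflammatory genes 13 were kept, 11 below 0, and 4 had an unadjusted p below 0.05: Cxcl1, Il10 at -0.61 ± 0.23, Cxcl2 at -1.59 ± 0.65 and Ccl3 at -0.74 ± 0.32. Over the same animals all 10 macrophage markers had differences above 0, with 4 at an unadjusted p below 0.05 and a summed level of 21.5 to 33.9 in HFT and 17.8 to 31.3 in HF. Of 7 neutrophil markers measured, Elane and Ngp were above background on no array, and the summed level was 0.260 to 0.610 in HFT and 0.418 to 0.675 in HF. All 6 blood cell markers kept had differences above 0, 2 of them at an unadjusted p below 0.05, with a summed level of 347 to 566 in HFT and 319 to 521 in HF. All 10 hepatocyte markers were above 0 too (median 0.69, none at an unadjusted p below 0.05), with sums of 4.61 to 38.9 in HFT and 4.23 to 78.1 in HF, and all 9 endothelial markers kept were below 0 (median -0.21), with sums of 27.5 to 40.1 in HFT and 29.8 to 47.7 in HF. Between animals the mean of the 6 blood markers ran against Junb at r = -0.77 (permutation, adjusted p over 176 such relations = 0.0164; rho = -0.75, adjusted p = 0.0419). That r was -0.61 without the 2 animals farthest from the median, -0.58 within HFT, -0.78 within HF, -0.78 with slide means removed and -0.76 without the 4 arrays with Ces5a above 0. The part of these cells in the differences was not tested, and in whole tissue fewer cells of a type cannot be told apart from less RNA per cell.

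The next comparison asked whether the 9 genes varied together between animals, over the 16 animals and with 100000 permutations for each of the 36 pairs. By Pearson's r, 5 pairs passed an adjusted p of 0.05. Of these, 4 involved Fkbp5 or Tsc22d3, whose values fall into separate sets of animals. Over the 16 animals Hsd11b1 with Tsc22d3 had r = -0.73 (permutation, adjusted p = 0.0143), at -0.81 within HFT and -0.79 within HF. Fkbp5 had 0.77 with Mt1 (adjusted p = 0.0119), 0.69 with Hsd11b1 (0.0315) and 0.65 with Mt2A (0.0439). Without the 4 arrays with Ces5a above 0 the 4 values were -0.65, 0.31, 0.46 and 0.01, and none of the 4 passed. Further down, r for such genes is mainly given within the larger set. A gene counted as split where the largest gap between neighbouring animals, with at least 3 animals on each side, was 25 percent or more of its range, which held for Fkbp5, Tsc22d3 and Cxcl1.

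Of the 21 pairs among the other 7 genes, 1 passed, that of the 2 metallothioneins. Mt1 and Mt2A correlated at r = 0.80 (permutation p = 1.9e-04, adjusted p = 0.00684; rho = 0.81, adjusted p = 0.0108). The r was 0.72 without HF 8 and HFT 23, 0.81 without the 4 arrays with Ces5a above 0 (adjusted p = 0.0328), 0.87 within HFT, 0.73 within HF and 0.81 with slide means removed. With animals shuffled only within slides the adjusted p was 0.105. The call was also lost without the 4 arrays of highest epididymal or urothelial marker median (adjusted p = 0.0506), without the 7 arrays with epididymal or urothelial genes (0.0841), and by an exact permutation test within HFT (0.1125) and within HF (0.257). In the reference gene table no gene lies between Mt1 and Mt2A. The 2 transcripts are close relatives, and with no probe sequence in the files used here, how far their probes share signal was not tested.

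Because these neighbours moved together, their promoters are shown (RefSeq, rat assembly GRCr8, 250 bases before to 50 after the gene start, minus strand). Capitals mark the core of the metal response element, bound by the zinc sensor Mtf1 and searched as TGCACNC and TGCGCNC on both strands.
Mt1 (chr19:10832926-10833225): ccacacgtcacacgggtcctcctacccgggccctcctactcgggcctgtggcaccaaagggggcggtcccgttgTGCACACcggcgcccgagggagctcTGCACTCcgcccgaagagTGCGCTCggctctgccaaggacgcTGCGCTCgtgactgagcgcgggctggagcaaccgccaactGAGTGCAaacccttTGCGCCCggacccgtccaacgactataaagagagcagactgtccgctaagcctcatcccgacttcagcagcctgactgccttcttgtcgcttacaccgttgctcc
Mt2A (chr19:10838659-10838958): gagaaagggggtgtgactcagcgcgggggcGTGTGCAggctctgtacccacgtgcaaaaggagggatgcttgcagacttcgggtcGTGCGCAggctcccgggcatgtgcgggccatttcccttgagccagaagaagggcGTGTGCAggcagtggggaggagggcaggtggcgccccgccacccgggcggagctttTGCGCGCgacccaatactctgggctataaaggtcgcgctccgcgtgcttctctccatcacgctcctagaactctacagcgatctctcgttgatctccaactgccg
The Mt1 promoter held 6 matches and the Mt2A promoter 4. Of 33469 rat promoters of the same length, 24.2% held at least 1 match and 0.439% held 4 or more. The palindromic glucocorticoid response element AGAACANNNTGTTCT was matched in 5 of all the promoters (0.0149%), and its single arm AGAACA, searched on both strands, in 20.7%. Neither was found in the 11 promoters that the table holds for Nr3c1, Fkbp5, Tsc22d3, Sgk1, Mt1 and Mt2A. A match, or its absence from so short a window, is a description of letters. Mtf1 itself differed by 0.05 ± 0.09 between the groups.

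The other 20 pairs ranged from r = -0.39 to r = 0.54 and none passed. The receptors Nr3c1 and Nr3c2 correlated at r = 0.54 (adjusted p = 0.118; rho = 0.65, adjusted p = 0.0413), and at 0.63 within HFT and 0.61 within HF. The pair passed without HF 9 (r = 0.69, adjusted p = 0.0375). It also passed with each array's median subtracted in place of the percentile (r = 0.71, adjusted p = 0.0200) and in the authors' deposited table (r = 0.64, adjusted p = 0.0371). With slide means removed r was 0.49 (adjusted p = 0.284), and with the adipocyte marker mean as a covariate 0.40 (adjusted p = 0.503). Sgk1 and Mt2A correlated at r = 0.54 (adjusted p = 0.118), but at -0.02 within HFT and 0.83 within HF, a contrast that was not tested. Hsd11b1 and Mt1 reached r = 0.52 (adjusted p = 0.119), which was 0.18 without the 4 arrays with Ces5a above 0. It was 0.78 within HFT and 0.66 within HF, and it passed with group means removed (r = 0.70, adjusted p = 0.0256). Sgk1 and Mt1 had r = 0.496 (adjusted p = 0.153), and 0.68 without those arrays (adjusted p = 0.174). With the adipocyte marker mean as a covariate they passed (r = 0.70, adjusted p = 0.0427). In all, 4 of the 21 pairs had an r of at least 0.5, beside 9.79% of all pairs of the genes kept.

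**Figure D3:**
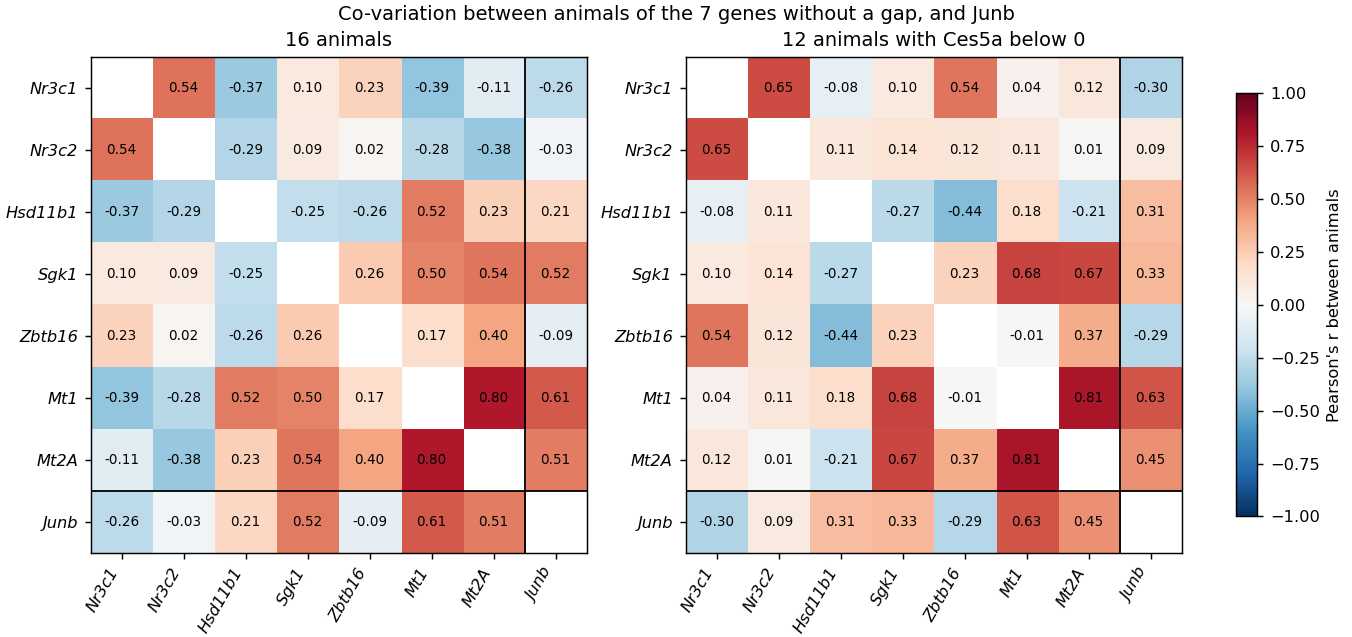
Pearson's r between animals for the 7 genes without a gap in their values and for Junb (last row and column), over 16 animals (left) and over the 12 animals with Ces5a below 0 (right). Mt1 with Mt2A was 0.80 and 0.81, while Hsd11b1 with Mt1 was 0.52 and 0.18.

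No pair with Fkbp5 passed within the 12 animals of its lower set, where r ran from -0.27 with Zbtb16 to 0.46 with Hsd11b1. With Tsc22d3, which is split too, 7 animals remained and r was -0.29. With Mt1 it was 0.31 and with Mt2A 0.01, and over the 15 pairs with a split gene the smallest adjusted p was 0.130. Summed adipocyte markers were 416 to 580 on the 4 arrays of high Fkbp5 and 516 to 758 on the other 12. Markers of the epididymal epithelium were unequally raised on the 4 arrays of high Fkbp5. Their median lay 3.66 (HFT 28), 2.43 (HF 8), 1.74 (HFT 23) and 0.19 (HF 9) above that of the median array. On HF 10, one of the other 12, it was 0.55. Adam7 ran from -3.62 to -2.56 on the 4 arrays and from -3.02 to -2.04 on the 12. Lcn12 ran from -0.08 to 0.37 and from -0.44 to 0.45. Of 16 markers of that tissue, 12 were detected on 1 or more of the 4 arrays, against 7 on 1 or more of the other 12. Their summed level was 14.6 to 31.0 on the 4 arrays and 1.48 to 2.89 on the 12, and between the groups it overlapped (1.48 to 26.4 in HFT, 1.70 to 31.0 in HF). The sum includes Ces5a, by which the 4 arrays were set apart, so their higher sums follow in part from that choice. Lcn5, an epididymal lipocalin, reached 4.12 on HFT 28, 3.42 on HFT 23 and 4.12 on HF 8, but only -4.98 on HF 9. Lcn9, Rnase9, Cst8 and Cst11 were above background on no array. Whether the high Fkbp5 signal came from the epididymal RNA was not tested.

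**Figure D4:**
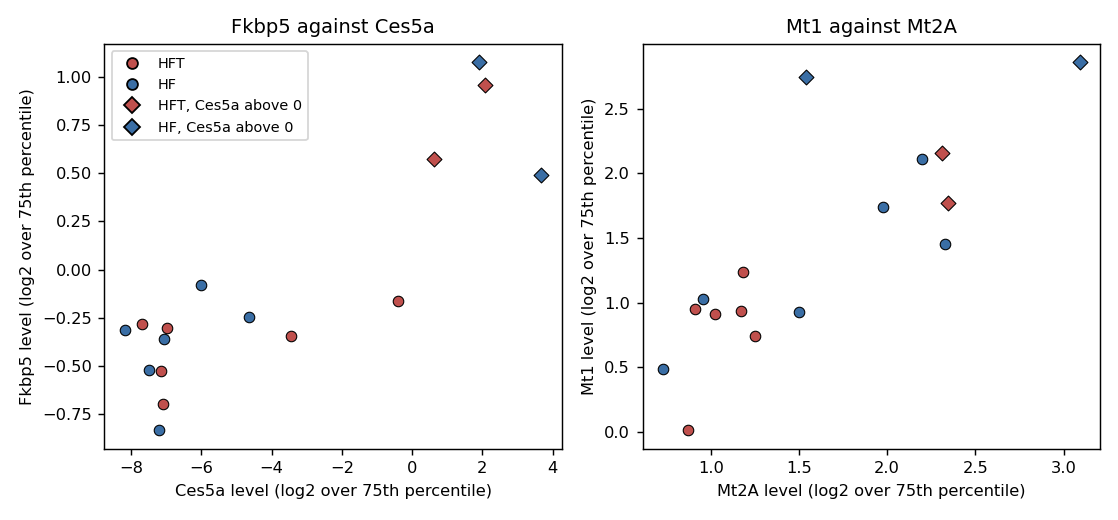
Left, Fkbp5 against Ces5a; right, Mt1 against Mt2A, all as log2 levels over the array's 75th percentile, 1 point per animal, with diamonds for Ces5a above 0. The 4 diamonds hold the 4 highest Fkbp5 levels, 0.49 to 1.07, whereas Mt1 and Mt2A rise together among the circles too.

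No pair with Tsc22d3 passed within its larger set of 11 animals. There r was 0.71 with Nr3c1 (adjusted p = 0.130; rho = 0.70, adjusted p = 0.150), 0.69 with Nr3c2 (adjusted p = 0.130; rho = 0.64, adjusted p = 0.162) and -0.67 with Mt1 (adjusted p = 0.130; rho = -0.72, adjusted p = 0.150). With Hsd11b1 it was -0.51 (adjusted p = 0.311; rho = -0.32, adjusted p = 0.514). With slide means removed the values for Nr3c1, Nr3c2, Mt1 and Hsd11b1 were 0.73, 0.73, -0.63 and -0.67. The 11 include the 4 arrays with Ces5a above 0, which hold 4 of the lower Tsc22d3 levels (1.97 to 2.10, against 2.07 to 2.82 on the other 12). Without them 7 animals were left, and the 4 values were 0.81, 0.44, 0.07 and -0.02. Toward Sgk1 r was -0.30 and toward Zbtb16 -0.02 over the 11. Over the same 11 animals Tsc22d3 had r = -0.87 with the mean of 5 epididymal markers and 0.76 with that of 11 adipocyte markers, and without the 4 arrays -0.65 and 0.37. The summed adipocyte level was 416 to 736 in HFT and 516 to 758 in HF. With the adipocyte mean as a covariate the values for Nr3c1, Nr3c2, Mt1 and Hsd11b1 over the 11 were 0.66, 0.41, -0.43 and -0.26.

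The relation to Cxcl1 and Junb was asked in 18 further pairs, and none passed an adjusted p of 0.05 over the 16 animals. Junb, which has no gap, correlated with Mt1 at r = 0.61 (permutation p = 0.0120, adjusted p = 0.108; rho = 0.48, adjusted p = 0.343), with Sgk1 at 0.52 (adjusted p = 0.157; rho = 0.42) and with Mt2A at 0.51 (adjusted p = 0.157; rho = 0.34). Without HF 8 and HF 13 the 3 values were 0.59, 0.40 and 0.30. Mt1 with Junb passed without HF 13 (r = 0.71, adjusted p = 0.0411) and without HFT 28 (r = 0.67, adjusted p = 0.0347). Without HF 8, the highest animal for both genes, its r was 0.465, the lowest with any 1 animal left out. With slide means removed the 3 values were 0.57, 0.49 and 0.53. Within HFT they were 0.37, 0.49 and -0.03, and within HF 0.61, 0.17 and 0.67. Without the arrays with Ces5a above 0, Mt1 kept an r of 0.63 and Sgk1 and Mt2A had 0.33 and 0.45. So 3 of 7 genes had an r of at least 0.5 with Junb, beside 1.94% of all genes, and 1 of 7 without the 4 arrays, beside 5.04%. Nr3c1, Nr3c2, Hsd11b1 and Zbtb16 lay between -0.26 and 0.21.

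Tsc22d3 and Junb had r = -0.66 over the 16 animals (permutation, adjusted p = 0.105; rho = -0.61, adjusted p = 0.262). The r was -0.79 within HFT, -0.72 within HF and -0.67 without HF 8 and HF 13. With group means removed it was -0.73 (adjusted p = 0.0297), and with slide means removed -0.62 (adjusted p = 0.309). For Tsc22d3 the animals formed a high and a lower set. The 5 animals of the high set had Junb at 0.50 (HFT 36), 0.21 (HFT 27), 0.04 (HFT 26), 0.77 (HF 12) and 0.52 (HF 10), all at the low end of Junb. Among the other 11, r was -0.11 (adjusted p = 0.997; rho = 0.07, adjusted p = 0.922). Leaving out the highest Tsc22d3 animals narrows the range of that gene, which by itself can bring r toward zero. Whether the relation lay only between the sets therefore cannot be told from this value. Fkbp5 and Junb had r = 0.01 over the 12 animals of the lower Fkbp5 set. Cxcl1 was above -0.82 in HF 8, HF 11, HF 9 and HF 13 and at -2.10 or below in the other 12. Within those 12, r with the 7 genes without a gap ran from -0.03 (Hsd11b1) to 0.41 (Zbtb16), with 0.19 for Sgk1, 0.09 for Mt1 and 0.14 for Mt2A, and every adjusted p of these r values was 0.997.

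**Figure D5:**
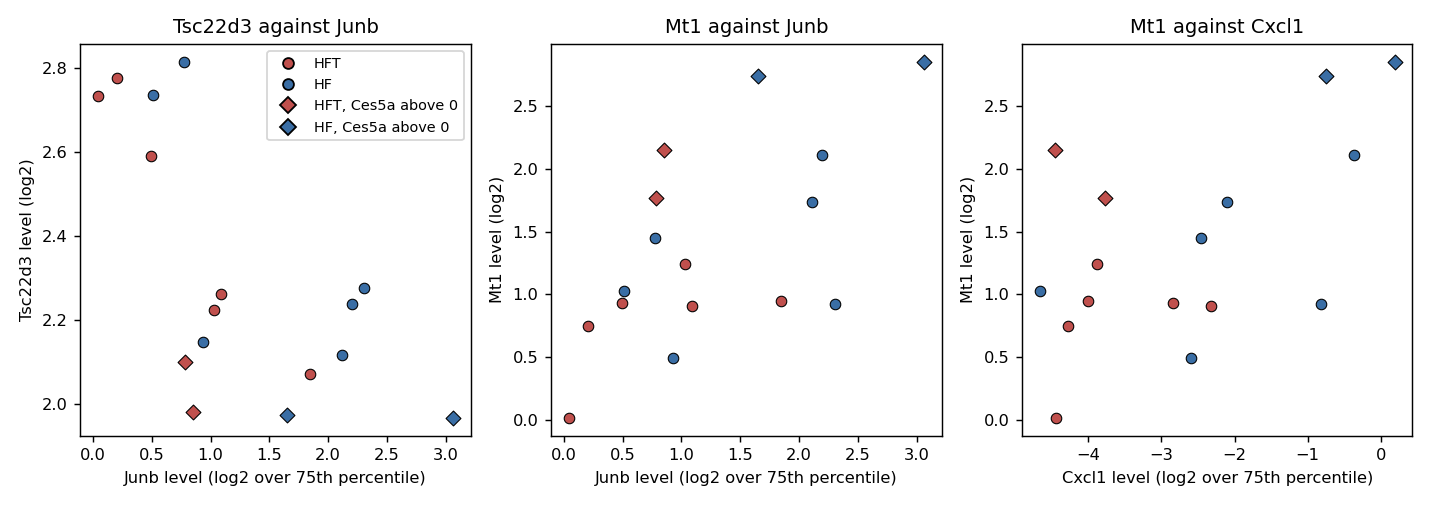
Tsc22d3 against Junb, Mt1 against Junb and Mt1 against Cxcl1, as log2 levels over the array's 75th percentile, 1 point per animal, diamonds for Ces5a above 0. In the first panel the 5 animals with Tsc22d3 at 2.59 or above all have Junb at 0.77 or below, and the 4 animals with Cxcl1 above -0.82 in the last are all HF.

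The genes most alike each member over the animals were sought among 10597 genes well above background on all arrays, and are given as a description. Nr3c1 ran with Lrg1, a secreted glycoprotein (r = 0.92), Txnip, the thioredoxin-binding protein (0.91), and Paqr6 (0.87), and Nr3c2 with the cyclin Ccnd3 (0.88), the ubiquitin ligase Itch (0.87) and Nagpa (0.83). Hsd11b1 was nearest to Tusc3 (0.86), Pcgf6 (0.82) and Eeig2 (0.80). For Sgk1 these were Zfp36 (0.79), Nfkbia (0.72) and B3gntl1 (0.71), of which the first is in the immediate-early list and Nfkbia in both the glucocorticoid-induced and the inflammatory list. Tsc22d3 was nearest to Dnajc21 (0.89), Zfp36l2 (0.88) and Prodh2 (0.88), and Zbtb16 to Lars1 (0.79), Nxpe1 (0.78) and the endothelial cadherin Cdh5 (0.77).

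Without the 4 arrays with Ces5a above 0, each r with the genes named was lower for Fkbp5, Mt1, Mt2A, Nr3c1, Nr3c2 and Zbtb16. For Hsd11b1 that of Tusc3 (0.74) and Pcgf6 (0.63) was lower but not that of Eeig2 (0.83). Zbtb16 then had 0.76, 0.71 and 0.73 with Lars1, Nxpe1 and Cdh5. Sgk1 had 0.72, 0.66 and 0.73 with Zfp36, Nfkbia and B3gntl1. Fkbp5 had Pals2 (0.96), Kcnip3 (0.96) and Rprml (0.95), and without those 4 arrays the values were 0.69, 0.66 and 0.55. Mt1 had the deiodinase Dio3 (0.88), Gdf10 (0.87) and H3f3b (0.87), at 0.66, 0.61 and 0.82 without them. Mt2A had Agrn (0.83) and Nmb (0.83), at 0.66 and 0.68 without them. For Nr3c1, Nr3c2 and Tsc22d3 the same step left each r at 0.83 or above. With the urothelial arrays left out too, Nr3c1 had 0.72 with Lrg1, 0.82 with Txnip and 0.59 with Paqr6. Tsc22d3 then had 0.86, 0.78 and 0.82 with Dnajc21, Zfp36l2 and Prodh2, and Nr3c2 had 0.86, 0.88 and 0.88 with Ccnd3, Itch and Nagpa.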

How the data were processed

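Total RNA of epididymal white adipose tissue from 16 rats was hybridised to 1-colour Agilent arrays. The deposited intensities are Agilent Feature Extraction 10.7.3.1 output, background-subtracted and detrended but not normalized between arrays, per the file headers. The flags for a spot well above background are 0 or 1 values set by that software, per the file headers. A deposited table of log2 values, normalized in a way not given in the sources used here, served as an alternative.

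The processed intensities were put on the log2 scale, each array's 75th percentile (control spots left out) was subtracted, replicate spots were averaged (62976 spots, 30367 probes) and 21809 probes were kept. HFT and HF were compared with limma 3.58.1 (lmFit and eBayes, R 4.3.3) with no covariate and Benjamini-Hochberg adjustment over all probes kept. Probes were named through their RefSeq accession in a rat gene table (GRCr8), which named 18005. Correlations used 100000 permutations (every permutation for 8 animals or fewer, which is exact), adjusted within each family of pairs, in Python 3.11.15. Both tests were tried on simulated data.

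Genes were named by rule: the 9 members, Cxcl1 and Junb, the 3 genes most correlated with each member (1 of those of Mt2A is not reported here), up to 4 genes of smallest unadjusted p in each pathway list, and Per1, Klf9, Dusp1, Pdk4, Cebpd, Ddit4, H6pd, Hsd11b2 and Dbp whatever their values. The members and lists were chosen with earlier results of these data known. Mtf1, Ces5a, Upk3a, Lcn5, the 4 epididymal markers above background on no array and Acot5 were named after their values were seen, as were the rule for 2 sets of animals and the 4 arrays set apart by Ces5a. The precision is limited by the number of arrays. Replicates are single animals.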

Additional observations from a re-analysis of the deposited data

Results flagged for a closer look

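No single animal was flagged for a member, Cxcl1 or Junb. In 22 groups of 8 samples the gap of the highest or lowest sample never passed 0.526 of the group's range. The test looks at a single animal at a time. It could not flag HFT 28 and HFT 23, or HF 8 and HF 9, which were high together for Fkbp5.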

How the results depend on the processing

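The count of probes past adjusted p between HFT and HF was 0 in the fit reported and under the following: normexp background correction with an offset of 50, quantile and median normalization, the deposited log2 table, 2 other filters, slide as a block, the 4 arrays of highest epididymal or urothelial marker median left out, the epididymal and urothelial scores as covariates, array weights, each animal left out, and the 7 arrays of epididymal or urothelial genes left out. Without the 4 arrays with Ces5a above 0, chosen after seeing the data, it was 1 (Acot5, -4.39 log2 units, adjusted p = 0.0495). Probes at an unadjusted p below 0.05, 247 higher and 268 lower in HFT as reported, became 122 and 833 with normexp, 558 and 418 with the epididymal and urothelial scores as covariates, and 568 and 593 without the 7 arrays. The sign of the near-zero differences turned for Nr3c1 without the 4 arrays of highest epididymal or urothelial marker median (-0.0034), with array weights (-0.0093), without the 7 arrays (-0.061) and on its other probe (-0.035), and for Fkbp5 with quantile normalization (0.0097), array weights (0.015) and without the 4 arrays (0.0058). With 1 animal left out, Nr3c1 ran from -0.024 to 0.074, Fkbp5 from -0.15 to 0.17 and Tsc22d3 from -0.0038 to 0.13.

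The 5 pairs past adjusted p among 36 became 0 with slide as a block, without the 4 of highest marker median, within HFT, within HF and without the 7 arrays; 2 with the adipocyte marker mean as a covariate (Mt1 with Mt2A, and Sgk1 with Mt1, which was not among the 5); and 1 without the 4 arrays or within the larger sets of animals. The count was 7 by Spearman's rho and in the deposited log2 table, 6 with group means removed and with the other probe of a gene, and 4 with array medians and with the 2 scores as covariates. With 1 animal left out the count was 3 to 6, the 3 arising without HFT 26 and without HFT 28. Sgk1 with Mt2A was -0.022 and Mt2A with Junb -0.034 within HFT. Of 18 pairs with Cxcl1 and Junb, 6 passed with the epididymal and urothelial scores as covariates, a permutation of residuals that does not count the 2 scores. With group means removed 1 passed (Tsc22d3 with Junb), and within the larger sets 0. With 1 animal left out 0 to 3 passed, with 3 without HF 13 and without HFT 28. The cause of these changes was not tested. No paired analysis was possible because the groups share no replicate number in their labels.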

Other observations

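Relations of the 9 genes, Cxcl1 and Junb to the means of 16 gene lists numbered 176, and those given here were chosen after their values were seen. Of the 9 genes, Fkbp5 passed by r with the epididymal (0.93, permutation, adjusted p = 8.8e-04), metal handling (0.81, 0.0266) and adipocyte means (-0.71, 0.0440). Mt1 passed with the epididymal mean (0.71, 0.0472) and Tsc22d3 with the adipocyte mean (0.75, 0.0214). Without the 4 arrays with Ces5a above 0 these r values were 0.38, -0.05, 0.09, -0.04 and 0.65. By rho only the Tsc22d3 relation passed (adjusted p = 0.00997). Nr3c1 had r = 0.70 with the mean of 29 glucocorticoid-induced genes outside the 9 over 16 animals (permutation p = 0.00315, adjusted p = 0.0504; rho = 0.59, adjusted p = 0.192), which did not pass. It was 0.39 without the 2 animals farthest from the median, 0.31 within HFT, 0.89 within HF, 0.76 with slide means removed and 0.56 without the 4 arrays with Ces5a above 0. That list shares Cidec with the adipocyte markers. Nr3c1 also had r = 0.53 with the adipocyte mean (adjusted p = 0.184) and 0.59 with the endothelial mean (adjusted p = 0.113). What the receptor gene followed was not tested. Zbtb16 had r = 0.57 with the glucocorticoid-induced mean (adjusted p = 0.147; rho = 0.40, adjusted p = 0.387), and 0.81 without the 4 arrays. Hsd11b1 had r = -0.61 with it (adjusted p = 0.0953), Sgk1 0.44 (adjusted p = 0.310), Mt2A 0.28 (adjusted p = 0.558), Nr3c2 0.12 (adjusted p = 0.833) and Mt1 -0.18 (adjusted p = 0.733). Within the larger sets of animals Tsc22d3 had r = 0.59 with it (11 animals) and Fkbp5 -0.19 (12 animals). For comparison, Junb had r = 0.91 with the mean of 26 other immediate-early genes (adjusted p = 8.8e-04; rho = 0.86, adjusted p = 0.00997), and 0.85 without the 2 farthest animals.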
